A study of Homo sapiens with 4 samples.

Results

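Integrins and the proteins that tie them to actin were described in RNA-seq data of cells labelled HepG2, a human liver cancer cell line, with and without the C/EBPβ enhancer. The members were chosen by their gene names after the log2 fold changes of this comparison had been seen. They are 12 integrin alpha chains, 8 integrin beta chains and 21 adaptors, kinases and actin linkers of focal adhesions, 41 genes of 57768 with an entry in the files. The values below therefore describe these genes and are no independent support for a change of the list. Of the 41 genes, 28 reached the mean of 1 FPKM over the libraries that was needed to enter the fit, and 13 did not. FPKM is the number of fragments scaled to transcript length and to the size of the library, so it can be compared between genes of one library. Between libraries it also depends on the other genes, so differences were also computed after rescaling.

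There were 2 libraries of WT cells and 2 of C/EBPβ enh-/- cells, in which CRISPR/Cas9 had removed the C/EBPβ enhancer from both alleles. All cells grew in the same medium, DMEM with fetal bovine serum, and no drug or time point is named. Whether WT cells had received the blank CRISPR/Cas9 vector, whether the C/EBPβ enh-/- cells were 1 clone, and whether the libraries of a genotype came from separate cultures, is not given in the sources used here, so the p-values measure the spread between these libraries, which may be technical. CEBPB, the gene the enhancer acts on, had 30.6 and 19.2 FPKM in WT libraries 1 and 2 and 12.4 and 11.8 FPKM in the corresponding C/EBPβ enh-/- libraries, lower in both (log2 fold change −0.94, SE 0.27, adjusted p = 0.125, limma).

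An integrin is a receptor of 1 alpha and 1 beta chain that spans the plasma membrane and binds matrix outside the cell. The alpha chain largely sets which matrix protein is bound. The short tail of the beta chain binds talin and kindlin, which switch the receptor on, and then a layer of adaptors (the complex of ILK, PINCH and parvin, with paxillin and the tensins), kinases (FAK and SRC) and actin linkers (vinculin, alpha-actinin, filamin, zyxin) gathers into a focal adhesion. A beta chain without a partner stays in the endoplasmic reticulum, so which receptors a cell can build depends on which chains it makes together. ITGB1 is known as the shared partner of most alpha chains, in liver cells as elsewhere.

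The promoters of 3 members are shown because these genes mark the extremes of what follows. ITGB1 and ITGB5 are the only beta chains that reached 1 FPKM, the first lower in C/EBPβ enh-/- cells and the second not separated between genotypes, and TNS3 had the largest difference of the 41 genes. Each runs 5′ to 3′ on the gene's own strand, here the minus strand, from 250 bases before the start site to 50 bases from it on, as RefSeq gives the sequence (GRCh38.p14). A match of each to GRCh37 gave the positions chr10:33247109-33247408 for ITGB1, chr3:124606163-124606462 for ITGB5 and chr7:47621660-47621959 for TNS3, and each start site is that of the gene's canonical transcript in GENCODE.
ITGB1: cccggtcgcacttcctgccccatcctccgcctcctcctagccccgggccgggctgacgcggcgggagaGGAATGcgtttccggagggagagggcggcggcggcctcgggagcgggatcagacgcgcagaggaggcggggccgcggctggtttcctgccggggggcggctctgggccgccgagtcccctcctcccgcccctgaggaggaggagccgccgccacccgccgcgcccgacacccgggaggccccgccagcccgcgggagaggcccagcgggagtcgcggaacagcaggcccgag
ITGB5: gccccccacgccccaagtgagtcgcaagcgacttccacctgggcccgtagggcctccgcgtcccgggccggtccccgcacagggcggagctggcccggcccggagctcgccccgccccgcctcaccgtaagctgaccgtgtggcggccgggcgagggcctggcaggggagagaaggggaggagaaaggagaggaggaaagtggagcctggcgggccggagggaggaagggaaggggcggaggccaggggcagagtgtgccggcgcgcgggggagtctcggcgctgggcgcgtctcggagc
TNS3: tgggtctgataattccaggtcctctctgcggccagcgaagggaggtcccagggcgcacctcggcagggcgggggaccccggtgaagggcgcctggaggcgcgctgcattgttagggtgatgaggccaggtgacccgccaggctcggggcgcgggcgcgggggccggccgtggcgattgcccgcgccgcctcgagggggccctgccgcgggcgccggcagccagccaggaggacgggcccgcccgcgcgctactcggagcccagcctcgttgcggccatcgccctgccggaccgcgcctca
Capitals mark a match to the TEAD motif CATTCC or its other strand GGAATG, found in ITGB1 with its first base 182 bases before the start site. All 3 windows are rich in G and C (78.3%, 75.7% and 76.3%), and they hold 39, 32 and 38 CpG sites. The letters TTGCNCAA of a C/EBP motif and TGANTCA of an AP-1 motif, read on both strands, were not in these windows, which says nothing about binding elsewhere. RefSeq promoters were matched for 30 members, 55 windows in all. CATTCC was in 16.4% of these 55 windows and in 14.0% of 34796 promoters, TGANTCA in 7.27% and 7.73%, and TTGCNCAA in 1.82% and 2.62%. ITGA3 had no promoter in the table.

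The labelled cell type was checked first. All 20 hepatocyte markers, ALB, AFP and HNF4A among them, were below 1 FPKM in all 4 libraries, with a summed level of 0.651 to 1.06 FPKM, so these libraries do not show the genes that define liver cells and HepG2 is used here only as the label. Of 7 epithelial markers, KRT8 and KRT18 were at least 82.6 FPKM in every library while EPCAM and CDH1 were at or near 0. Both keratins fell (log2 fold changes −1.68 and −1.52, adjusted p = 0.0325 and 0.0243, limma), so that the summed epithelial level was 649 and 798 FPKM in WT cells and 238 in each C/EBPβ enh-/- library, lower like ITGB1, ITGA3 and TNS3 below. Of 9 fibroblast markers, COL1A1, COL3A1 and PDGFRB were at 1 FPKM or more in all libraries, COL1A2 was at or near 0, and the sum was 50.3 to 54.3 FPKM in WT and 57.7 to 73.4 in C/EBPβ enh-/- cells. The higher sum came with COL3A1, while PDGFRB (4.15 and 5.59 against 1.52 and 2.27 FPKM) and DCN (1.33 and 1.24 against 0.110 and 0.392 FPKM) were lower in both C/EBPβ enh-/- libraries. Of 8 leukocyte markers CD68 alone reached 1 FPKM in all libraries. Of 6 endothelial markers 5 had an entry, and 0 of these did. In bulk RNA, fewer cells of a type and less RNA per cell cannot be told apart, and the part of these markers in the results was not tested.

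C/EBPβ enh-/- library 1 was the shallowest by an estimate from low values, as no counts were recovered. The most frequent ratio of its low values to those of WT library 1 put it at 0.551 times that library's depth. WT library 2 and C/EBPβ enh-/- library 2 were at 1.12 and 1.23 times. The 12491 tested genes had a median log2 fold change of −0.14, and 1.21% of them were called lower and 0.248% higher at an adjusted p under 0.05 (limma, 151 and 31 genes). Both C/EBPβ enh-/- libraries lay below both WT libraries for 37.5% of the tested genes and above both for 15.1%. The split of calls changed with the scaling, to 61 lower and 23 higher genes after rescaling to the same total per library, 62 and 30 after scaling to the same upper quartile, and 68 and 31 after centring on the median. In the fits of 1 library against 2, which called fewer genes, it was 22 and 3 without WT library 1, 9 and 3 without WT library 2, 15 and 20 without C/EBPβ enh-/- library 1, and 20 and 19 without C/EBPβ enh-/- library 2. Centring moved the median of all tested genes from −0.14 to 0.0345, so the differences of TNS3, ITGA3, ITGB1, LIMS1 and PARVB and the median of the list are also given as differences from that median.

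Of the 28 tested members, 2 were called lower (TNS3 and ITGA3) and 0 higher in C/EBPβ enh-/- cells, beside the 1.21% and 0.248% of all tested genes called. An unadjusted p under 0.05 (limma) was found for 8 members, all of them lower, namely TNS3, PARVB, ITGA3, LIMS1, ITGB1, PTK2B, TLN2 and PXN. Of all tested genes, 20.8% had such a p, 16.9% lower and 3.86% higher. That split was nearly even when scaled to the upper quartile (1263 lower and 1144 higher) or centred (1263 and 1142), where 7 of 8 such members were lower. For 13 members both enhancer-deleted libraries were lower than both WT libraries and for 1 they were higher, beside 37.5% and 15.1% of all tested genes, and the genotypes overlapped for 14. The genotype difference exceeded both within-genotype differences for 11 members (39.3% of those tested), beside 40.3% of all tested genes. The median log2 fold change of the 28 was −0.37, or −0.23 relative to all tested genes, with single genes between −1.93 and 0.37. A two-sided exact permutation test of 2 against 2 libraries has 0.333 as its smallest possible p, and none is given for single genes.

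**Figure D1:**
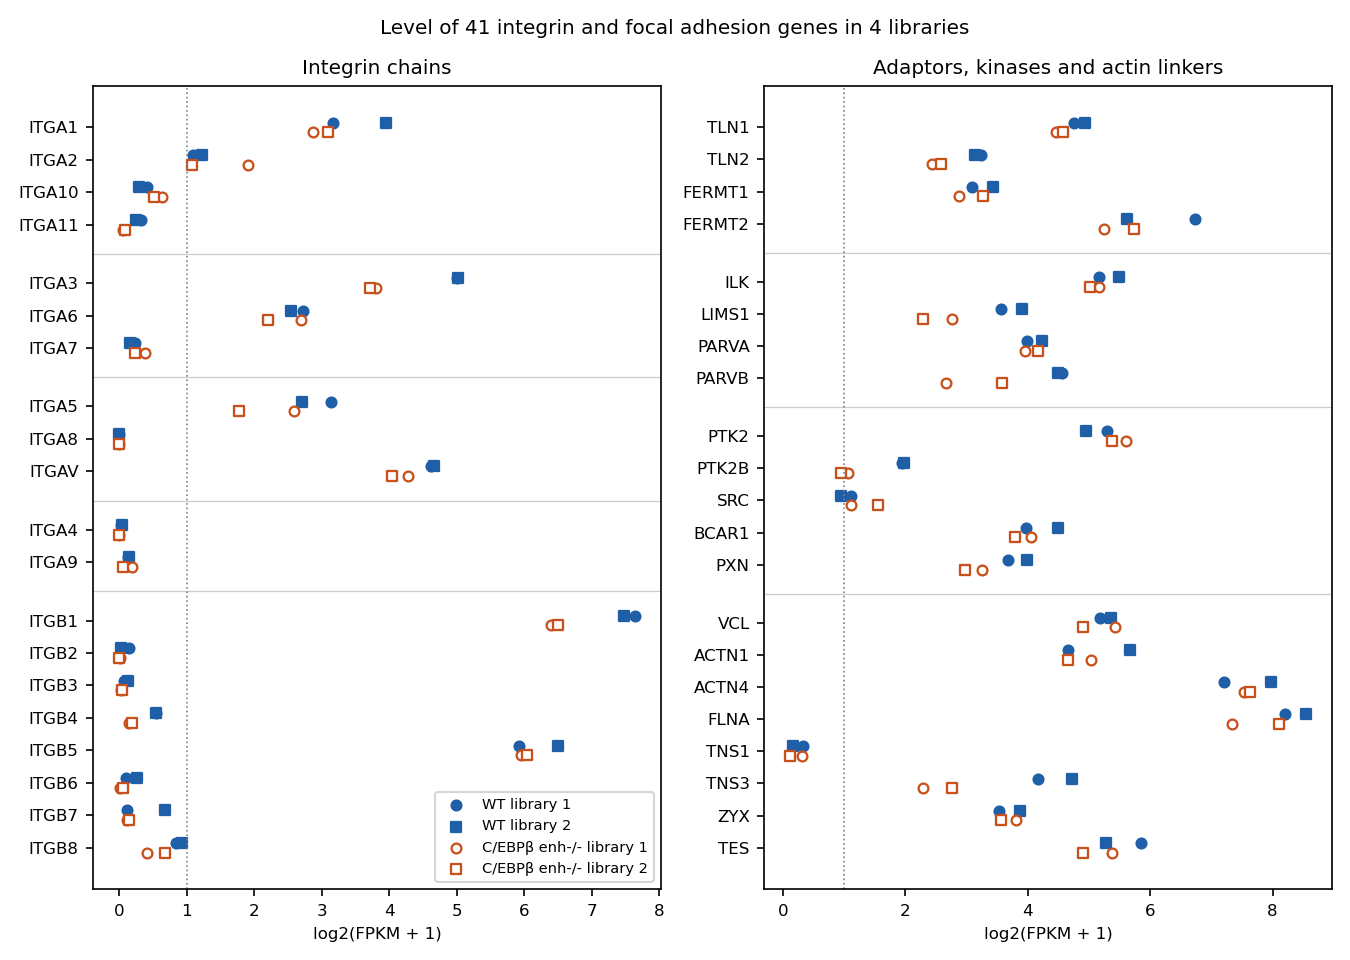
Level of each of the 41 genes as log2(FPKM + 1) in WT libraries 1 and 2 (filled circle and square) and C/EBPβ enh-/- libraries 1 and 2 (open circle and square), with integrin chains on the left, the other genes on the right and lines between groups of roles. The dotted line is 1 FPKM, and 6 of 12 alpha chains and 6 of 8 beta chains stay below it in every library.

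Only 8 of the 20 integrin chains were expressed at a level that entered the fit. ITGB1, the beta chain of the collagen, laminin and fibronectin receptors, was the most abundant, with 199 and 177 FPKM in WT cells and 83.7 and 89.4 FPKM in C/EBPβ enh-/- cells. Its values were close within each genotype and wide apart between them, with means of 188 ± 15.8 (SD, n = 2) and 86.6 ± 4.02 (SD, n = 2). The log2 fold change was −1.11 (SE 0.21), or −0.97 relative to all tested genes, and the adjusted p of 0.0581 (limma) missed the threshold. ITGB1 (ENSG00000150093, chromosome 10 of GRCh37, minus strand) lies on a chromosome whose 459 tested genes had a median of −0.34, and its difference from that median was −0.77. The adjusted p of ITGB1 passed in 1 of 13 other settings, at 0.0414 without genes listed at 0 in any library (limma). It was 0.114 to 0.124 under the 3 rescalings and 0.120 to 0.342 without any 1 library (limma). A processed pseudogene of it, ITGB1P1, was listed at 0 in all libraries.

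ITGB5, which pairs with ITGAV as a vitronectin receptor, was at 59.8 and 89.7 FPKM in WT cells and at 60.7 and 64.9 in C/EBPβ enh-/- cells. Both C/EBPβ enh-/- values lay between the WT values, and the log2 fold change was −0.22 (SE 0.26, adjusted p = 0.670, limma). Each of these beta chains can be set against the summed FPKM of all 8. ITGB1 made up 76.5% and 65.8% of that sum in WT cells and 57.7% and 57.6% in C/EBPβ enh-/- cells. The share of ITGB5 was 22.9% and 33.3% in WT cells and 41.9% and 41.8% in C/EBPβ enh-/- cells, higher in both, although its own level was not separated between genotypes. The mean of the sum itself was 265 ± 5.88 FPKM for WT and 150 ± 7.24 FPKM for C/EBPβ enh-/- cells (SD, n = 2 each).

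The other 6 beta chains stayed below 1 FPKM in all libraries. ITGB8, another partner of ITGAV, came nearest with 0.793 and 0.903 FPKM in WT cells and 0.333 and 0.601 in C/EBPβ enh-/- cells. ITGB4, the partner of ITGA6 in hemidesmosomes, was at 0.460 and 0.464 in WT cells and 0.106 and 0.136 in C/EBPβ enh-/- cells, so the genotypes were separated at a low level that was not tested. ITGB3, ITGB6 and the leukocyte chain ITGB2 did not pass 0.203 FPKM in any library. ITGB7 reached 0.607 FPKM in WT library 2 alone and was at most 0.111 in the others. It shares 42.3% of its exon bases with ZNF740 on the opposite strand (5.85 to 9.16 FPKM), and since no strand setting is given in the sources used here, fragments of such a pair cannot be told apart.

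Among the laminin-binding alpha chains, ITGA3 had the clearest difference. ITGA3, whose product forms the main laminin receptor of many epithelial cells together with ITGB1, was at 31.1 and 31.5 FPKM in WT cells and 12.9 and 12.2 in C/EBPβ enh-/- cells. The 2 libraries of a genotype hardly differed and the genotypes were far apart, with a ratio of means of 0.401. The log2 fold change was −1.25 (SE 0.21, adjusted p = 0.0431, limma), or −1.11 relative to all tested genes. The 721 tested genes of its chromosome 17 had a median of −0.47, and ITGA3 differed from that median by −0.78. The call was lost under all 3 rescalings (adjusted p from 0.0687 to 0.0846, limma), with the replicate block, without the trend, without the filter on low values and without any 1 of the 4 libraries (0.118 to 0.294), while the log2 fold change stayed between −1.31 and −1.06.
ITGA6, the other laminin-binding chain in use, was at 5.63 and 4.84 FPKM in WT cells and 5.49 and 3.62 in C/EBPβ enh-/- cells. The genotypes overlapped (log2 fold change −0.18, SE 0.26, adjusted p = 0.728, limma). ITGA7, a chain of muscle cells, was at most 0.303 FPKM.

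ITGAV, the alpha chain that binds the RGD sequence of vitronectin and of latent TGF-beta, was the most abundant of the 12 alpha chains beside ITGA3, at 23.5 and 24.4 FPKM in WT cells and 18.4 and 15.5 in C/EBPβ enh-/- cells. Both C/EBPβ enh-/- values were lower, by a smaller step than for ITGA3 (log2 fold change −0.48, SE 0.22, adjusted p = 0.266, limma), and the value was −0.29 with the upper quartile and −0.30 when centred. Relative to the median of −0.44 over the 795 tested genes of chromosome 2, where it lies, the difference was −0.042. ITGA5, the fibronectin receptor chain, was at 7.82 and 5.52 FPKM in WT cells and 5.01 and 2.42 in C/EBPβ enh-/- cells, which did not overlap, although the C/EBPβ enh-/- libraries were as far from each other (0.81 on the log2 scale) as the genotypes were (log2 fold change −0.74, SE 0.33, adjusted p = 0.262, limma). ITGA8, which also binds RGD, was at or near 0 in all libraries.

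Of the collagen-binding chains, ITGA1 was at 8.01 and 14.4 FPKM in WT cells and 6.32 and 7.51 in C/EBPβ enh-/- cells. Its WT values were 0.77 apart on the log2 scale, more than the genotypes were (log2 fold change −0.58, SE 0.30, adjusted p = 0.322, limma), and the value was −0.97 without WT library 1 and −0.19 without WT library 2. ITGA2 was the only integrin chain of the fit with a value above 0, at 1.15 and 1.33 FPKM in WT cells and 2.77 and 1.11 in C/EBPβ enh-/- cells (log2 fold change 0.33, SE 0.34, adjusted p = 0.623, limma). Its sign came from C/EBPβ enh-/- library 1, the shallowest by estimate, without which the log2 fold change was −0.0858. ITGA10 (0.222 to 0.556 FPKM) was higher and ITGA11 (0.0446 to 0.251 FPKM) lower in both C/EBPβ enh-/- libraries, both below the level that was tested. ITGA4 and ITGA9, chains of leukocytes and of several other cell types, did not exceed 0.141 FPKM.

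The summed level of the 12 alpha chains was 78.1 and 82.7 FPKM in WT cells and 52.0 and 43.0 in C/EBPβ enh-/- cells. ITGA3 was the first of them in both WT libraries, with 39.8% and 38.2% of the sum, and came after ITGAV in both C/EBPβ enh-/- libraries, where it held 24.9% and 28.3% and ITGAV 35.4% and 36.0%. ITGAV had held 30.1% and 29.5% in the WT libraries. ITGB1 mRNA exceeded the sum of its 12 possible alpha partners in every library, 2.56 and 2.14 times in WT cells and 1.61 and 2.08 times in C/EBPβ enh-/- cells. By this ratio, C/EBPβ enh-/- library 2 was nearer to WT library 2 than to its own replicate.

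**Figure D2:**
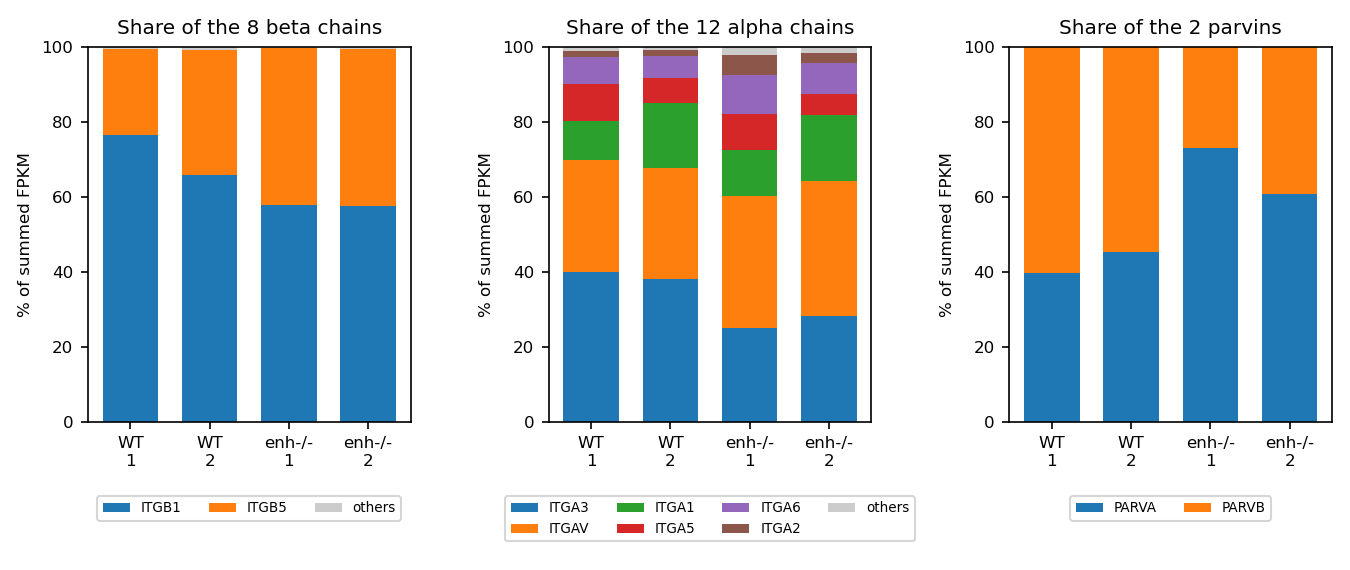
Stacked bars of the share of each gene, in percent of summed FPKM, within the 8 beta chains, the 12 alpha chains and the 2 parvins, for each of the 4 libraries. ITGB1 holds 76.5% and 65.8% of the beta chains in WT and 57.7% and 57.6% in C/EBPβ enh-/- libraries, ITGA3 leads the alpha chains in WT and ITGAV in C/EBPβ enh-/- libraries, and PARVB leads the parvins in WT and PARVA in C/EBPβ enh-/- libraries.

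Of the 24 known human integrin pairs, 18 consist of members. With 1 FPKM or more of both chains asked of each library of a genotype, 7 pairs could be formed by WT cells and 7 by C/EBPβ enh-/- cells, and they were the same 7. These were ITGB1 with ITGA1, ITGA2, ITGA3, ITGA5, ITGA6 or ITGAV, and ITGB5 with ITGAV. They include receptors for collagen, laminin, fibronectin and vitronectin, and leave out the leukocyte, platelet and hemidesmosome integrins. At 0.5 FPKM, WT cells gained ITGAV with ITGB8, for 8 pairs against 7. That difference rested on C/EBPβ enh-/- library 1 (ITGB8 at 0.333 FPKM), as library 2 reached the level (0.601 FPKM). At 5 FPKM, 5 pairs were left in WT and 4 in C/EBPβ enh-/- cells, which lacked ITGA5 with ITGB1 at that level. This rested on C/EBPβ enh-/- library 2 (ITGA5 at 2.42 FPKM), as library 1 just reached the level (5.01 FPKM). In all 7 pairs the alpha chain was the scarcer mRNA in every library. ITGAE, no member of the list, was at 18.2 to 26.4 FPKM, but its partner ITGB7 stayed below 1 FPKM. These are mRNA levels, and neither surface protein nor pairing was measured.

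**Figure D3:**
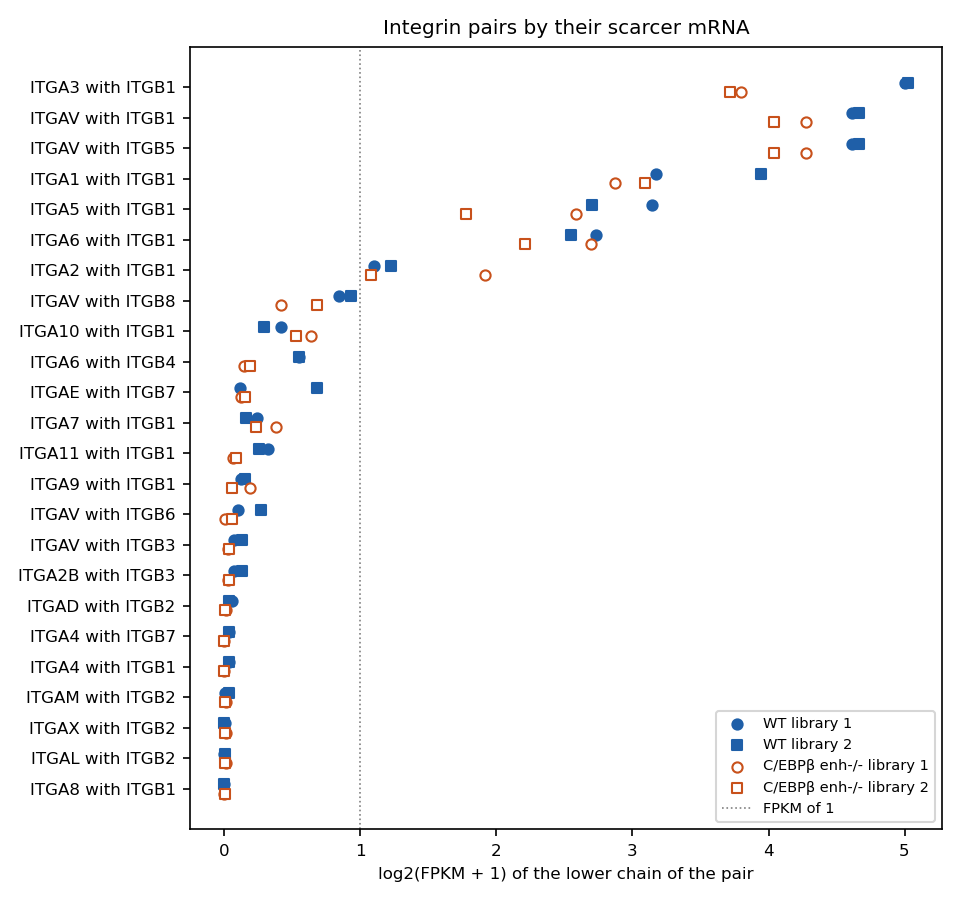
Level of the scarcer of both chains, as log2(FPKM + 1), for the 24 known integrin pairs in WT libraries 1 and 2 (filled circle and square) and C/EBPβ enh-/- libraries 1 and 2 (open circle and square). The same 7 pairs lie to the right of the dotted line of 1 FPKM in both genotypes, and ITGA3 with ITGB1 shows the widest gap between genotypes.

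Talins and kindlins bind the beta chain tail. TLN1, the talin of most tissues, was at 26.1 and 29.4 FPKM in WT cells and 21.0 and 22.9 in C/EBPβ enh-/- cells, lower in both (log2 fold change −0.32, SE 0.21, adjusted p = 0.428, limma). The value was −0.13 with the upper quartile and −0.15 when centred. TLN2, its close relative, was at 8.42 and 7.76 FPKM in WT cells and 4.41 and 4.97 in C/EBPβ enh-/- cells. The genotypes were separated, and the log2 fold change of −0.68 (SE 0.22) had an adjusted p of 0.154 (limma). TLN2 thus made up 24.4% and 20.9% of talin mRNA in WT libraries and 17.4% and 17.8% in C/EBPβ enh-/- libraries. FERMT2 (kindlin-2) was at 106 FPKM in WT library 1 and 48.2 in WT library 2, and at 36.8 and 52.1 in C/EBPβ enh-/- cells. WT library 2 lay between the C/EBPβ enh-/- libraries, so the log2 fold change of −0.69 (SE 0.39, adjusted p = 0.352, limma) rested on WT library 1, and without it the value was −0.14. FERMT1 (kindlin-1), the epithelial kindlin, was at 6.38 to 9.79 FPKM and overlapped.

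ILK, PINCH and parvin form a complex in which ILK binds PINCH (LIMS1) and 1 parvin, so the members' balance can be read within each library. ILK was at 34.7 and 43.8 FPKM in WT cells and 34.9 and 31.2 in C/EBPβ enh-/- cells, and the genotypes overlapped (log2 fold change −0.23, SE 0.23, adjusted p = 0.598, limma). Of its exon bases, 68.1% are shared with TAF10 on the opposite strand (24.1 to 32.5 FPKM), so part of its value may belong to TAF10. LIMS1 was at 10.8 and 14.0 FPKM in WT cells and at 5.80 and 3.87 in C/EBPβ enh-/- cells, well apart (log2 fold change −1.21, SE 0.26, adjusted p = 0.0769, limma), or −1.07 relative to all tested genes. Its near-copies LIMS3 and LIMS4 were listed at or near 0, and how fragments were divided between the copies is not given in the sources used here. LIMS1 was at 0.312 and 0.320 times the level of ILK in WT cells and at 0.166 and 0.124 times in C/EBPβ enh-/- cells.
PARVA and PARVB compete for the same place on ILK. PARVB was at 22.6 and 21.6 FPKM in WT cells and 5.31 and 10.9 in C/EBPβ enh-/- cells. Both values were lower, and they differed from each other by 0.92 on the log2 scale (log2 fold change −1.41, SE 0.32, adjusted p = 0.0848, limma). PARVA was at 14.9 and 17.9 FPKM in WT cells and 14.4 and 16.9 in C/EBPβ enh-/- cells, overlapping, with a log2 fold change of −0.060 (SE 0.22) that turned positive when the libraries were centred on the median or scaled to the upper quartile. PARVB was the more abundant parvin in both WT libraries (60.2% and 54.7% of the sum of both) and the less abundant in both C/EBPβ enh-/- libraries (26.9% and 39.2%). The difference of PARVB was −1.27 relative to all tested genes and −1.01 relative to its chromosome 22 (median −0.41 over 296 tested genes).

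Neither FAK family kinase passed the test. PTK2, which encodes FAK, was at 38.4 and 30.1 FPKM in WT cells and 47.9 and 40.7 in C/EBPβ enh-/- cells, and it was the only tested member with both C/EBPβ enh-/- values above both WT values (log2 fold change 0.37, SE 0.23, adjusted p = 0.412, limma). Its relative PTK2B (PYK2) was at 2.85 and 2.95 FPKM in WT cells and 1.09 and 0.928 in C/EBPβ enh-/- cells, close within genotypes and far apart between them (log2 fold change −0.96, SE 0.25, adjusted p = 0.110, limma). Both genes lie on chromosome 8, whose 422 tested genes had a median of 0.21, and relative to it PTK2 differed by 0.16 and PTK2B by −1.17. PTK2B was at 0.0743 and 0.0980 times the level of PTK2 in WT cells and at 0.0229 and 0.0228 times in C/EBPβ enh-/- cells. SRC, which FAK binds, was low at 0.934 to 1.93 FPKM and overlapped (log2 fold change 0.30, SE 0.29, adjusted p = 0.603, limma).
The scaffolds that FAK and SRC phosphorylate were less clear. PXN (paxillin) was at 11.8 and 14.8 FPKM in WT cells and 8.49 and 6.89 in C/EBPβ enh-/- cells, separated by genotype (log2 fold change −0.72, SE 0.23, adjusted p = 0.158, limma). PXN-AS1 overlaps 23.7% of its exon bases on the opposite strand and was also lower in both C/EBPβ enh-/- libraries, at 3.56 and 6.10 FPKM against 8.77 and 9.22, and its part in the value of PXN was not tested. BCAR1 (p130Cas) was at 12.9 to 21.6 FPKM and overlapped (log2 fold change −0.31, SE 0.26, adjusted p = 0.533, limma).

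Among the actin linkers, TNS3 had the largest difference of all members. TNS3, a tensin that binds beta chain tails and actin, was at 16.9 and 25.5 FPKM in WT cells and 3.86 and 5.75 in C/EBPβ enh-/- cells. The highest C/EBPβ enh-/- value was far below the lowest WT value, and the mean was 0.227 times that of WT cells. The log2 fold change was −1.93 (SE 0.29, adjusted p = 0.0327, limma), or −1.79 relative to all tested genes and −1.73 relative to the 597 tested genes of its chromosome 7. The call was lost under all 3 rescalings (adjusted p from 0.0614 to 0.0670, limma), without any 1 library (0.0978 to 0.259) and without the filter on low values, while the log2 fold change stayed between −2.21 and −1.64. TNS1, the other tensin of the list, did not exceed 0.251 FPKM.

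The other actin linkers did not pass the test. VCL (vinculin) was at 35.1 and 40.3 FPKM in WT cells and 42.0 and 28.8 in C/EBPβ enh-/- cells, and ZYX (zyxin) was at 10.5 to 13.6 FPKM in all libraries. Their log2 fold changes of −0.11 (SE 0.25) and −0.016 (SE 0.24) turned positive when centred on the median or scaled to the upper quartile. ACTN4, an alpha-actinin, was at 146 and 250 FPKM in WT cells and 184 and 198 in C/EBPβ enh-/- cells. Its log2 fold change of 0.0015 (SE 0.29) turned negative after rescaling to the same total. ACTN1 was at 24.1 and 49.8 FPKM in the WT libraries, on both sides of the 31.8 and 24.3 of the C/EBPβ enh-/- libraries (log2 fold change −0.31, SE 0.36, adjusted p = 0.664, limma), and without WT library 2 the value was 0.20. With standard errors from 0.24 to 0.36, changes of that size cannot be told from 0 for these 4 genes. FLNA (filamin A), which cross-links actin and competes with talin for the beta tail, was the most abundant member at 293 and 374 FPKM in WT cells and 160 and 273 in C/EBPβ enh-/- cells, below both WT values (log2 fold change −0.66, SE 0.30, adjusted p = 0.270, limma). The value was −0.28 without C/EBPβ enh-/- library 1 and −1.04 without C/EBPβ enh-/- library 2. TES (testin) was at 29.0 to 56.6 FPKM and overlapped (log2 fold change −0.42, SE 0.29, adjusted p = 0.442, limma).

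**Figure D4:**
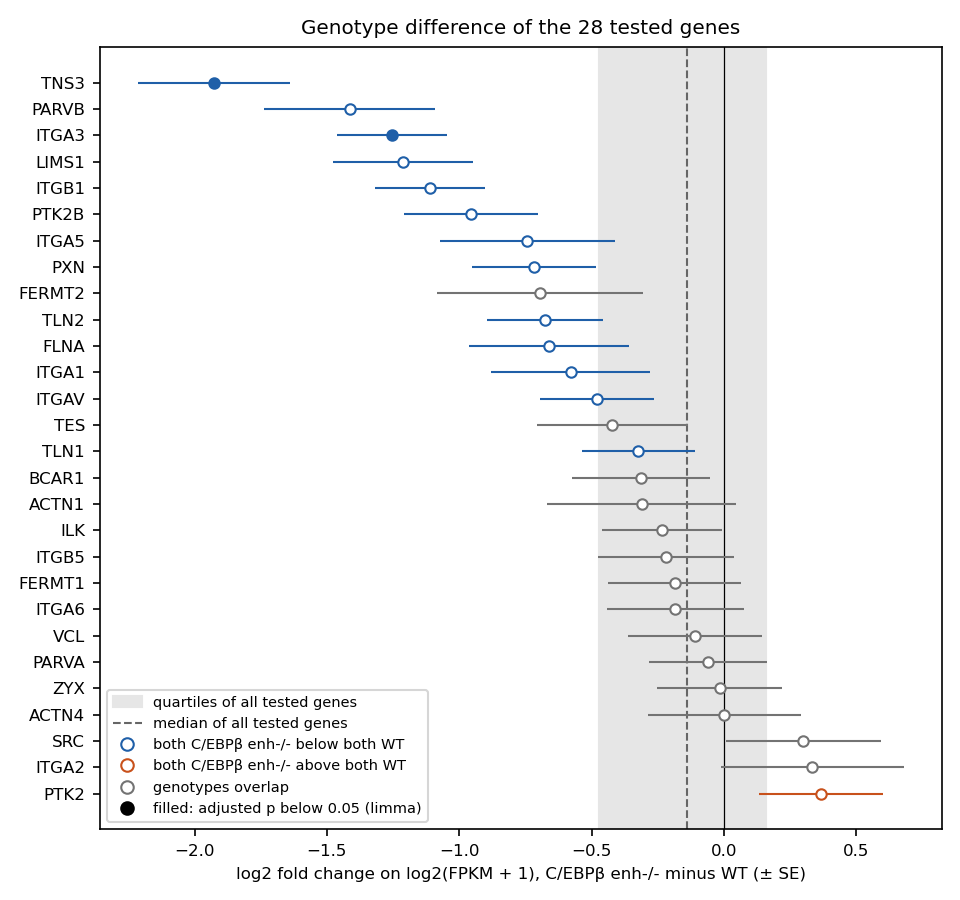
Log2 fold change on log2(FPKM + 1), C/EBPβ enh-/- minus WT, with its standard error for the 28 tested members, in order of size, and the median and quartiles of all tested genes as a dashed line and a grey band. Filled points passed an adjusted p under 0.05 (limma), TNS3 at −1.93 and ITGA3 at −1.25. Blue, orange and grey points mark members whose C/EBPβ enh-/- values are both below, both above or overlapping the WT values.

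Other genes of the adhesion pathway were taken from lists by role, and their counts at an unadjusted p under 0.05 stand beside the 20.8% of all tested genes. Of 33 further adaptors of adhesion sites, 24 were tested, and 1 was called lower and 0 higher, beside 1.21% and 0.248% of all tested genes (11 at an unadjusted p under 0.05, limma), with a median log2 fold change of −0.41. The one called was PDLIM1, an adaptor of alpha-actinin, at 10.3 and 11.6 FPKM in WT cells and 2.49 and 2.39 in C/EBPβ enh-/- cells (log2 fold change −1.79, SE 0.22, adjusted p = 0.0208, limma). Its relative PDLIM5 had the largest value above 0, at 15.9 and 15.4 FPKM in WT cells and 73.0 and 32.2 in C/EBPβ enh-/- cells (log2 fold change 1.57, SE 0.37, adjusted p = 0.0900, limma). CSRP1, a LIM protein that binds zyxin and the most abundant of them, was at 99.0 and 111 FPKM in WT cells and 173 and 136 in C/EBPβ enh-/- cells (log2 fold change 0.55, adjusted p = 0.231, limma). For 13 of the 24 both C/EBPβ enh-/- libraries were lower and for 3 higher, beside 37.5% and 15.1% of all tested genes.
Of 27 signalling genes downstream of integrins, 26 were tested and 0 were called (8 at an unadjusted p under 0.05, limma), with a median of −0.39. Both C/EBPβ enh-/- libraries were the lower ones for 15 of the 26 and the higher ones for 0, beside 37.5% and 15.1% of all tested genes. SHC1, an adaptor that links integrins to RAS, was at 54.8 and 86.9 FPKM in WT cells and 21.3 and 39.8 in C/EBPβ enh-/- cells (log2 fold change −1.22, SE 0.36, adjusted p = 0.132, limma). RHOA, the most abundant of them, overlapped at 95.3 to 130 FPKM.

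Of 12 regulators of integrins, all were tested and 0 were called (3 at an unadjusted p under 0.05, limma), and their median of 0.0023 was above that of all tested genes. DAB2, an endocytic adaptor of ITGB1, had the largest value below 0 (43.3 and 20.2 FPKM in WT, 11.8 and 14.9 in C/EBPβ enh-/- cells, log2 fold change −1.10, adjusted p = 0.160, limma). CD47, which associates with several integrins, had the largest above 0 (37.8 and 43.4 against 59.1 and 57.4 FPKM, log2 fold change 0.51, adjusted p = 0.230, limma). SLC3A2, the heavy chain of CD98 that binds beta chains, overlapped at 262 to 410 FPKM. For 3 of the 12 both C/EBPβ enh-/- libraries were lower and for 2 higher, beside 37.5% and 15.1% of all tested genes. Of 15 actomyosin genes, all tested, 0 were called (3 at an unadjusted p under 0.05, limma), with a median of −0.10. ROCK2, a kinase that activates myosin, was at 38.7 and 33.1 FPKM in WT cells and 10.7 and 18.4 in C/EBPβ enh-/- cells (log2 fold change −1.29, SE 0.29, adjusted p = 0.0833, limma). MYL12A, a myosin light chain, was higher in both C/EBPβ enh-/- libraries (log2 fold change 0.41, adjusted p = 0.367, limma), and ACTG1, the most abundant, overlapped. Among the 15 actomyosin genes, both C/EBPβ enh-/- libraries were lower for 3 and higher for 3, beside the same shares of all tested genes.

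Of 29 ligands of integrins, 20 were tested, 1 was called lower and 0 higher, beside 1.21% and 0.248% of all tested genes (11 at an unadjusted p under 0.05, limma), and the median log2 fold change was −0.65. LAMB3, a laminin chain of basement membranes that ITGA3 and ITGA6 receptors bind to, was at 17.8 and 15.9 FPKM in WT cells and 1.86 and 2.35 in C/EBPβ enh-/- cells. The means had a ratio of 0.125 (log2 fold change −2.52, SE 0.22, adjusted p = 0.00554, limma). LAMB2, the most abundant ligand, was at 72.1 and 78.7 FPKM in WT cells and 27.8 and 54.7 in C/EBPβ enh-/- cells (log2 fold change −0.93, SE 0.33, adjusted p = 0.178, limma). COL3A1, a fibrillar collagen, was at 33.3 and 31.9 FPKM in WT cells and 45.8 and 55.7 in C/EBPβ enh-/- cells (log2 fold change 0.62, SE 0.22, adjusted p = 0.177, limma). Both C/EBPβ enh-/- libraries were below both WT libraries for 12 of the 20 ligands and above for 3, beside 37.5% and 15.1% of all tested genes. Of 6 further integrin alpha chains, ITGAE alone was tested, with 24.6 and 26.4 FPKM in WT cells and 20.3 and 18.2 in C/EBPβ enh-/- cells (log2 fold change −0.39, SE 0.21, adjusted p = 0.346, limma).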

How the data were processed

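RNA-seq of 4 libraries was used, with groups and replicate numbers from the labels, whose extraction text describes chromatin rather than RNA. The authors deposited 1 FPKM value per gene and library (57815 entries, versioned Ensembl identifiers). The submitters' processing notes name hg19, TopHat2 2.0.13, Cufflinks and edgeR without roles, and whether libraries were scaled to each other is not given in the sources used here. After leaving out 47 pseudoautosomal entries of chromosome Y, 55535 of 57768 identifiers matched a symbol. FPKM depends on a library's other genes. Per library, the share of summed FPKM taken up by the top 5 genes differed by genotype. It was 22.3% and 18.8% for WT libraries 1 and 2, and larger, 35.1% and 27.4%, for C/EBPβ enh-/- libraries 1 and 2. How much this share lowered the values of other genes in C/EBPβ enh-/- libraries was not tested. Relative depth was estimated as the inverse of the most frequent ratio of values under 0.1 FPKM to those of WT library 1, and no counts were recovered.

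Values were taken as log2(FPKM + 1), which understates the change of low genes, for genes with a mean of at least 1 FPKM. The comparison of genotypes used lmFit and eBayes with trend (limma 3.58.1, R 4.3.3), two-sided, Benjamini-Hochberg over 12491 genes, threshold 0.05, without a replicate block. With n = 2 the number of libraries limits precision. The fit was tested on simulated data. Coordinates and exons came from GENCODE release 44 on GRCh37. Of the other lists, each gene past the threshold, the most abundant, and the largest value below and above 0 among genes separated by genotype were named. Members and lists were chosen with earlier results of these data known. Tables were handled in pandas 2.3.3 and numpy 2.4.6 under Python 3.11.15, and figures drawn with matplotlib 3.10.9. Alternatives are given at the end.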

Additional observations from a re-analysis of the deposited data

How the results depend on the processing

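The 41 genes were refitted under 9 other settings and 4 times with 1 library left out. Their count of 2 called lower was 1 without the trend, 1 with the replicate block (ITGA3 lost, adjusted p = 0.0743, limma), 0 without the filter, and 0 when rescaled to the same total, scaled to the upper quartile or centred, and 3 without genes listed at 0 in any library. It was 0 to 0 over the fits leaving out a library, in which the lone library of a genotype is assumed to vary like the others. Their median of −0.37 was −0.23 without the filter, −0.18 with the upper quartile and −0.20 when centred, and ranged from −0.51 to −0.26 over the fits leaving out a library. Over all tested genes the median was 0 without the filter, 0.0348 with the upper quartile and 0.0345 when centred, and −0.19 to −0.10 without 1 library. Beside 151 lower and 31 higher genes as reported, 0 and 0 were called without the filter (2657 and 1107 at an unadjusted p under 0.05, limma), 61, 62 and 68 lower when rescaled, scaled to the upper quartile or centred, 93 lower with the replicate block, 324 and 47 without genes listed at 0, 20 higher with a mean FPKM of at least 5, and 9 to 22 lower and 3 to 20 higher without 1 library (15 and 20 without C/EBPβ enh-/- library 1). At 5 FPKM, C/EBPβ enh-/- cells had 4 integrin pairs. The cause was not tested.

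Of 360 values of single genes, 322 kept direction and call, 18 lost the call (TNS3 and ITGA3), 1 gained it (ITGB1) and 19 changed sign. Members other than TNS3 and ITGA3 had no call to lose, so the 322 mostly hold values that were never called. ITGA3 lost its call in 10 of 13 alternatives and TNS3 in 8 of 13, and 4 of the 13 were fits leaving out a library. By scaling, PARVA became 0.13 and 0.11, VCL 0.0883 and 0.0647, ZYX 0.17 and 0.16 (upper quartile and centred) and ACTN4 −0.00873 (same total). Values that kept their sign and moved by over 1.5 times from the reported one, in 1 or both of the upper quartile and centred fits (given in that order), were ITGA6 −0.0169 and −0.00945, ITGAV −0.29 and −0.30, ITGB5 −0.0183 and −0.0447, TLN1 −0.13 and −0.15, FERMT1 −0.00484 and −0.0122, ILK −0.0366 and −0.0603, BCAR1 −0.12 and −0.14, ACTN1 −0.11 and −0.14, ACTN4 0.20 and 0.18, TES −0.22 and −0.25, PTK2 0.56 and 0.54, ITGA2 0.45 and 0.51 and SRC 0.42 and 0.47. With a pseudocount of 0.1, PTK2B was −1.44 and SRC 0.49, and ZYX was −0.0263 with the same total. Leaving out 1 library gave ranges that cross 0, of −0.0858 to 0.75 for ITGA2 (sign turned without C/EBPβ enh-/- library 1), −0.43 to 0.0607 for ITGA6 (sign turned without C/EBPβ enh-/- library 2), −0.51 to 0.0700 for ITGB5 (sign turned without WT library 2), −0.37 to 0.00203 for FERMT1 (sign turned without C/EBPβ enh-/- library 1), −0.18 to 0.0614 for PARVA (sign turned without WT library 2 or C/EBPβ enh-/- library 1), −0.37 to 0.15 for VCL (sign turned without C/EBPβ enh-/- library 2), −0.82 to 0.20 for ACTN1 (sign turned without WT library 2), −0.38 to 0.39 for ACTN4 (sign turned without WT library 1 or C/EBPβ enh-/- library 2) and −0.19 to 0.15 for ZYX (sign turned without WT library 2 or C/EBPβ enh-/- library 2). Ranges of 1 sign with an end over 1.5 times from the reported value were −0.97 to −0.19 for ITGA1, −1.15 to −0.34 for ITGA5, −1.25 to −0.14 for FERMT2, −0.40 to −0.0711 for ILK, 0.20 to 0.54 for PTK2, 0.0790 to 0.52 for SRC, −0.58 to −0.0499 for BCAR1, −1.04 to −0.28 for FLNA and −0.71 to −0.14 for TES. Labels give both genotypes the numbers 1 and 2, but the deviations of same-numbered libraries had a correlation of 0.0094 across genes, so the numbers were not taken as a pairing, and the block is given as an alternative alone.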
